A study of Drosophila melanogaster with 10 samples.

Results

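Pericentric heterochromatin is the compact, repeat-rich DNA around the centromeres, and the 40 genes described here are known to lie in it in Drosophila melanogaster. They were chosen by name, from a list of 42 names of which 2 were older names of genes already listed. A named probe set was found for 29 of the 40 genes, 24 by the listed name and 5 by an older name of the platform's symbol (Parp1, listed as Parp; Slmap, listed as CG17494; FASN3, listed as CG17374; l(3)80Fg, listed as CG40178; Spf30, listed as CG17454). The other 11 genes (rl, Nipped-A, RpL5, RpL38, vtd, dpr21, nAChRalpha80B, Pzl, CG17702, uex and CG40045) were not analysed here. The whole data set held 11983 named genes, each measured by its probe set of highest mean over all arrays.

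Heterochromatin silences many genes that are moved next to it, and it does so through methylated histone H3 lysine 9, the HP1 proteins that bind this mark, and the linker histone H1 on the DNA that joins nucleosomes. Resident genes are a special case. Several of them, such as light (lt), are known to be transcribed from within heterochromatin and to lose expression when a rearrangement takes them away from it. Polytene salivary gland nuclei under-replicate this DNA and gather it in the chromocentre. The list mixes genes of basic cell functions with genes used mainly in particular tissues.

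Affymetrix expression arrays were hybridised with biotin-labelled total RNA of 10 samples. Kc cells, a haemocyte-like line of embryonic origin, received dsRNA against H1 (2 arrays) or against GFP (2 arrays) on days 0, 2 and 4, for 1 hour without serum, were grown at 25 °C and gave RNA on day 6, per the labels, whereas the series record speaks of a single treatment. Larval salivary glands were taken from transgenic flies whose RNAi construct targeted H1 (3 arrays) or nau, the gene of a myogenic transcription factor also called Nautilus (3 arrays), under Tub-Gal4. This driver is active throughout the body, so the RNAi was not limited to the gland, and both gland groups carried it, with crosses at 18 °C and, from the embryo stage on, a shift to 29 °C for the knockdown. Separate cultures or animals behind the arrays of a group are not stated in the labels. The p-values then reflect only the spread among these arrays, possibly a technical spread. Since the groups are bulk samples, fewer cells of a type and less RNA per cell cannot be told apart.

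Values below are log2 intensities unless a fold is given, and they compare a probe set between samples, not a gene with another gene. Calls are adjusted p under 0.05 in limma, with Benjamini-Hochberg adjustment over 18769 probe sets. A signal was read as near background at or under 3.55, the 95th percentile of 17 Tag control probe sets that match no fly transcript. Where an array of the lower group was at or under this level, the arrays of that group were raised to it and the change is given as a bound. The arrays topped out at 14.09 to 14.34. Arrays of a group correlated with r of 0.9983 in Kc cells and from 0.9886 to 0.9937 in glands. How far H1 was depleted is not known from these arrays, as none of the probe sets used here carries a His1 name. The nau signal was 3.47 ± 0.10 in glands labelled H1 RNAi and 5.68 ± 0.29 in glands labelled nau RNAi (SD, n = 3 each; adjusted p = 1.26e-06), which is opposite to a depletion of nau, so each gland direction below rests on the labels. Markers of other cells moved in the glands too. Of 10 measured neuron and glia markers 7 were called higher and 1 lower in glands labelled H1 RNAi, with a summed linear intensity of 1815 to 2500 against 746.7 to 908.7 in glands labelled nau RNAi, and of 12 haemocyte markers 10 were called higher and 1 lower (7315 to 7544 against 4535 to 5157). Calls were 3 higher and 1 lower of 5 fat body markers, 2 and 1 of 6 muscle markers, 4 and 2 of 8 midgut markers, and 1 and 1 of 11 germline and testis markers. Of all named genes 23.6% were called higher and 23.6% lower in this comparison. Of 11 salivary gland markers 10 were called lower (38100 to 45690 against 128700 to 132600), although none was at or under the near-background level in either gland group. Both gland groups also carried strong fat body signal. The fat body markers summed to 57300 to 59370 in glands labelled H1 RNAi and 50780 to 54030 in glands labelled nau RNAi. The part of these shifts in the resident genes' values was not tested. Of the 10 neuron and glia markers 7 were highest on array a among the 3 gland H1 arrays, such as elav at 7.78 against 5.41 and 5.68 on arrays b and c, and 3 (cac, moody and nSyb) were highest on array c.

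Most resident genes differed little between the RNAi groups in either system. A few had a probe set at or near background in glands labelled nau RNAi and strong in glands labelled H1 RNAi. For Marf1 this held for 1 of its 2 probe sets. Of the 29 genes, 17 (58.6%) were not called in either RNAi comparison, against 51% of all named genes. In Kc cells 1 was called, and in glands 7 were higher and 5 lower. The spread of sizes in glands was wide, from a decrease of 0.51 for CG17490 to an increase of 6.81 for Marf1, while 22 of the 29 (75.9%, against 64.9% of all named genes) changed by less than 0.5. A change of at least 2-fold was seen in 4 of the 29 (13.8%), and in 15.8% of all named genes.

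**Figure D1:**
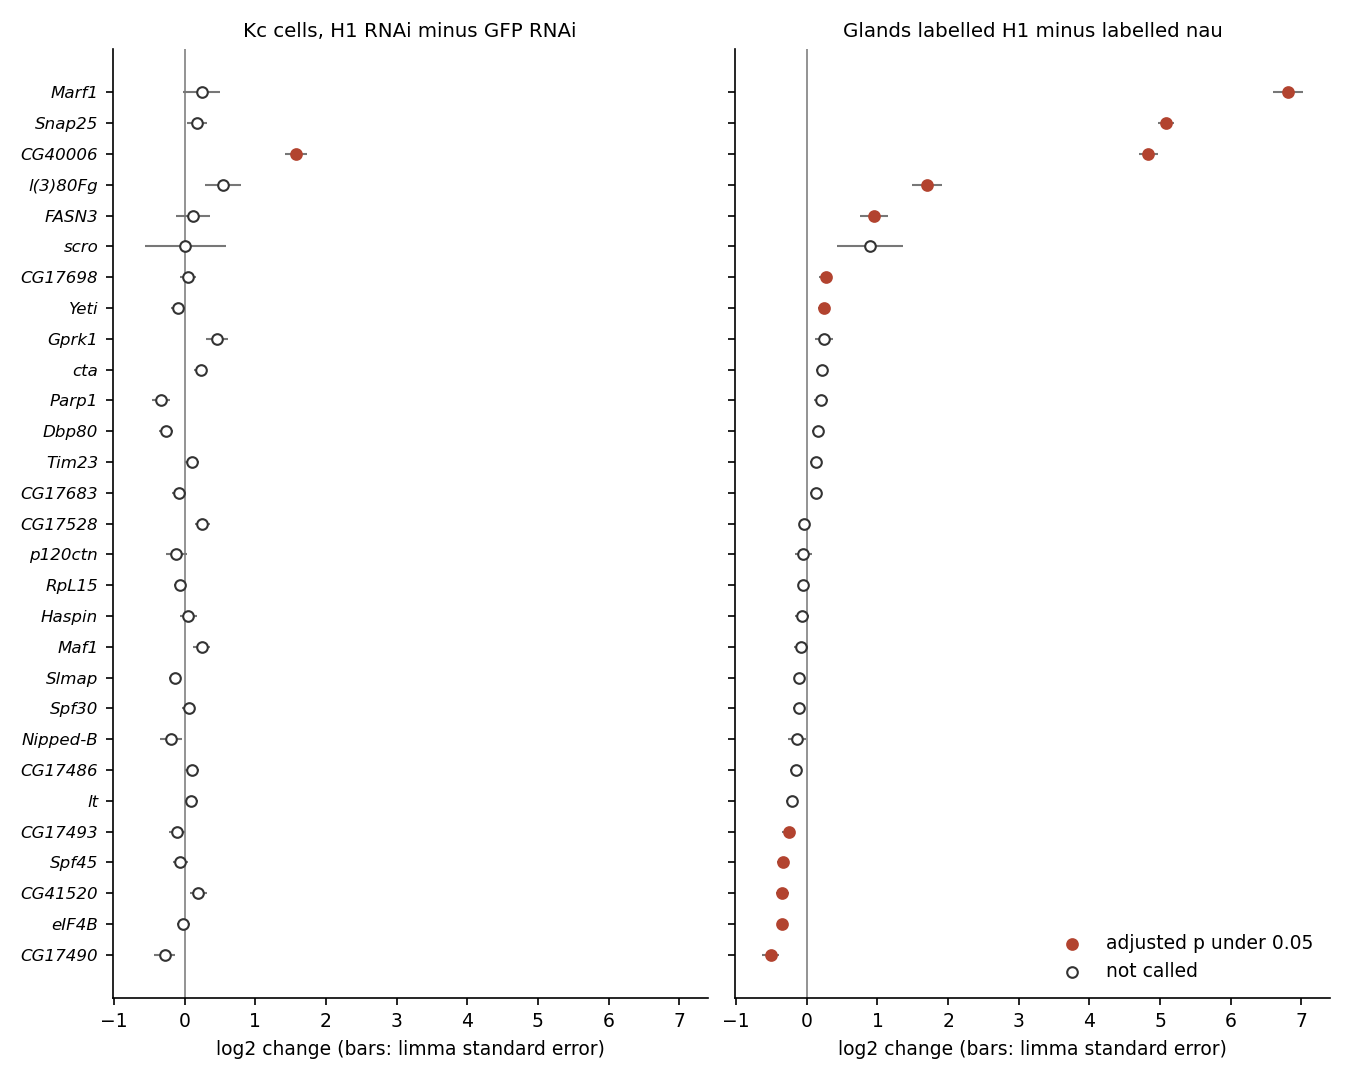
Log2 change of each of the 29 measured resident genes, H1 RNAi against GFP RNAi for Kc cells (left) and glands labelled H1 RNAi minus glands labelled nau RNAi (right), with limma standard errors as bars and called genes filled. In Kc cells only CG40006 is filled, at 1.58, while in glands Marf1, Snap25 and CG40006 stand at 6.81, 5.08 and 4.84 and most other genes lie within 0.5 of 0.

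The Kc comparison asked what dsRNA against H1 does to these genes in a dividing cell line. CG40006, which encodes a relative of CD36-type scavenger receptors, was the 1 call. Its signal was 6.88 and 6.88 in H1 RNAi cells, against 5.45 and 5.15 in GFP RNAi cells. The groups did not overlap, and the log2 change was 1.58 (standard error 0.159, adjusted p = 0.000492). Among all named genes 3.45% were called higher and 1.59% lower, so 1 of 29 higher (3.45%) and 0 lower is a share near the background. At an unadjusted p under 0.05 there were 6 residents, and 17.4% of all named genes. The median change of the residents was 0.05, against -0.03 over all named genes. Of 12 haemocyte markers 0 were called higher and 2 lower in H1 RNAi cells, with a summed linear intensity of 10710 to 10920 against 10010 to 10140 in GFP RNAi cells, and of 10 neuron and glia markers 1 was called higher. In Kc cells the 3′ minus 5′ difference of control transcripts was 0.27 ± 0.02 with H1 RNAi and 0.44 ± 0.06 with GFP RNAi for actin (SD, n = 2 each). GAPDH showed 0.58 ± 0.22 with H1 RNAi and 0.83 ± 0.01 with GFP RNAi, and eIF-4a showed 0.58 ± 0.08 and 0.56 ± 0.0007. The mean signal of 3 control probe sets for 18S ribosomal RNA was 4.36 ± 0.41 with H1 RNAi and 6.76 ± 1.09 with GFP RNAi. The part of these shifts in the CG40006 change was not tested.

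The other 28 residents lay between -0.33 and 0.54 in Kc cells. The highest of them was l(3)80Fg, at 5.23 and 5.49 in H1 RNAi cells and 4.98 and 4.65 in GFP RNAi cells (0.54, adjusted p = 0.392). Next came Gprk1, a kinase of G protein-coupled receptors, at 7.89 and 7.83 against 7.28 and 7.53 (0.46, adjusted p = 0.183). In both genes the H1 arrays lay above the GFP arrays without passing the test. Both passed when the Kc arrays were fitted alone, with adjusted p = 0.0443 for l(3)80Fg and 0.0325 for Gprk1. That fit called 930 of all named genes higher, in place of 414. The lowest were Parp1 (-0.33), CG17490 (-0.28) and Dbp80 (-0.26). Groups that did not overlap were found for 13 residents higher and 7 lower, where 24.8% and 34.5% of all named genes did not overlap in those directions.

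Neither of the classic genes of the second chromosome's heterochromatin, light and concertina, was called in Kc cells. Light, which encodes the Vps41 subunit of the HOPS tethering complex, had 10.30 and 10.22 in H1 RNAi cells and 10.13 and 10.19 in GFP RNAi cells (0.10, adjusted p = 0.792). Concertina (cta), the alpha subunit of a G protein that drives cell shape change in gastrulation, had 8.36 and 8.51 against 8.19 and 8.22 (0.23, adjusted p = 0.303). RpL15, a protein of the large ribosomal subunit, was near the top of the arrays in all groups, at 13.71 to 14.14, where a further rise could hardly show.

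The gland comparison put this question to a polytene tissue. Here 23.6% of all named genes were called higher and 23.6% lower, against 7 of 29 residents higher (24.1%) and 5 lower (17.2%). The residents' median change was -0.03, and that of all named genes -0.04. The residents' shares therefore lie close to or under the background. Single members differed in the size of the change, but 13.8% of the residents changed at least 2-fold, against 15.8% of all named genes. Glands labelled H1 RNAi and labelled nau RNAi did not overlap for 10 residents higher and 9 lower, where 25.9% and 28.7% of all named genes did not overlap in those directions.

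Among the genes of translation and RNA handling, Marf1 changed most. It encodes an RNA-binding protein known for silencing mRNAs in the oocyte. Its signal was 10.46, 10.32 and 10.69 in glands labelled H1 RNAi, against 3.11, 4.07 and 3.85 in glands labelled nau RNAi. The groups were wide apart. The nau group averaged 3.68, between the near-background level and the highest Tag value of 4.08. The change was at least 6.66 on the log2 scale, or at least 101.1-fold (fitted 6.81, standard error 0.212, adjusted p = 2.31e-08). The second Marf1 probe set did not follow. It had 5.07, 5.57 and 5.51 in glands labelled H1 RNAi and 4.81, 5.30 and 5.23 in glands labelled nau RNAi, a change of 0.27 (adjusted p = 0.211), so the rise rests on 1 of the gene's 2 probe sets.

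The other members of this role group were called lower or did not pass. The translation initiation factor gene eIF4B had 10.71, 10.59 and 10.64 in glands labelled H1 RNAi and 11.02, 11.00 and 10.98 in glands labelled nau RNAi, a decrease without overlap (-0.36, adjusted p = 0.00286). All 4 of its probe sets were called lower, by -0.31 to -1.05. The splicing factor gene Spf45 had 9.57, 9.39 and 9.60 against 9.87, 9.83 and 9.85 (-0.33, adjusted p = 0.0111). Dbp80, a DEAD-box helicase of mRNA export (0.16, adjusted p = 0.159), RpL15 (-0.05) and Maf1, a repressor of RNA polymerase III (-0.08), were not called.

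The neuronal gene of the list also had a large rise. Snap25 encodes a SNARE protein of synaptic vesicle fusion. It had 8.59, 8.41 and 8.68 in glands labelled H1 RNAi, against 3.66, 3.50 and 3.27 in glands labelled nau RNAi. All arrays of the H1 group were far above the background and the mean of the nau group (3.48) was under it, so the change is a bound of at least 4.97 on the log2 scale, or at least 31.4-fold (fitted 5.08, adjusted p = 2.68e-09). Without gland H1 array a, on which 7 of the 10 neuron and glia markers had their highest gland H1 value, the fitted change was 5.07. The part of these markers' shift in the Snap25 change was not tested.

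Among the signalling, trafficking and membrane genes, CG40006 rose in glands as it did in Kc cells. It had 8.68, 8.81 and 9.14 in glands labelled H1 RNAi, against 4.12, 4.06 and 3.95 in glands labelled nau RNAi. The groups were well apart, and the nau mean of 4.04 lay just above the near-background level. The log2 change was 4.84 (standard error 0.130, 28.6-fold, adjusted p = 8.97e-09). Of all named genes 1.56% were called higher and changed at least 8-fold, as Marf1, Snap25 and CG40006 did. The 8-fold cut was not planned in advance, and Marf1 passed it with 1 of its 2 probe sets. CG40006 was the 1 resident called higher in both systems, out of 169 such genes among all named ones.

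Other genes of this group differed little. CG17698, a relative of a calcium/calmodulin-dependent kinase kinase, had 6.77, 7.03 and 6.92 in glands labelled H1 RNAi and 6.58, 6.69 and 6.65 in glands labelled nau RNAi (0.27, adjusted p = 0.0373). Its other probe set gave -0.19 (adjusted p = 0.194), so the gene has no settled direction. The call was lost without any single array other than gland H1 array a (adjusted p from 0.0534 to 0.12). Light had 9.94, 9.98 and 9.94 in glands labelled H1 RNAi and 10.26, 10.16 and 10.08 in glands labelled nau RNAi (-0.21, adjusted p = 0.0525), and cta had 8.88, 8.96 and 9.0 against 8.69, 8.74 and 8.77 (0.21, adjusted p = 0.0536). Both just missed the threshold, in opposite directions and without overlap. Of 17 alternatives lt passed in 5, among them without gland nau array c (-0.26, adjusted p = 0.0339), and cta passed in 2. A probe set that the annotation assigns to cta together with another gene gave 0.04 (adjusted p = 0.746). Gprk1 (0.24, adjusted p = 0.165), the catenin gene p120ctn (-0.05) and CG17528, which encodes a doublecortin-related kinase (-0.03), were not called.

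**Figure D2:**
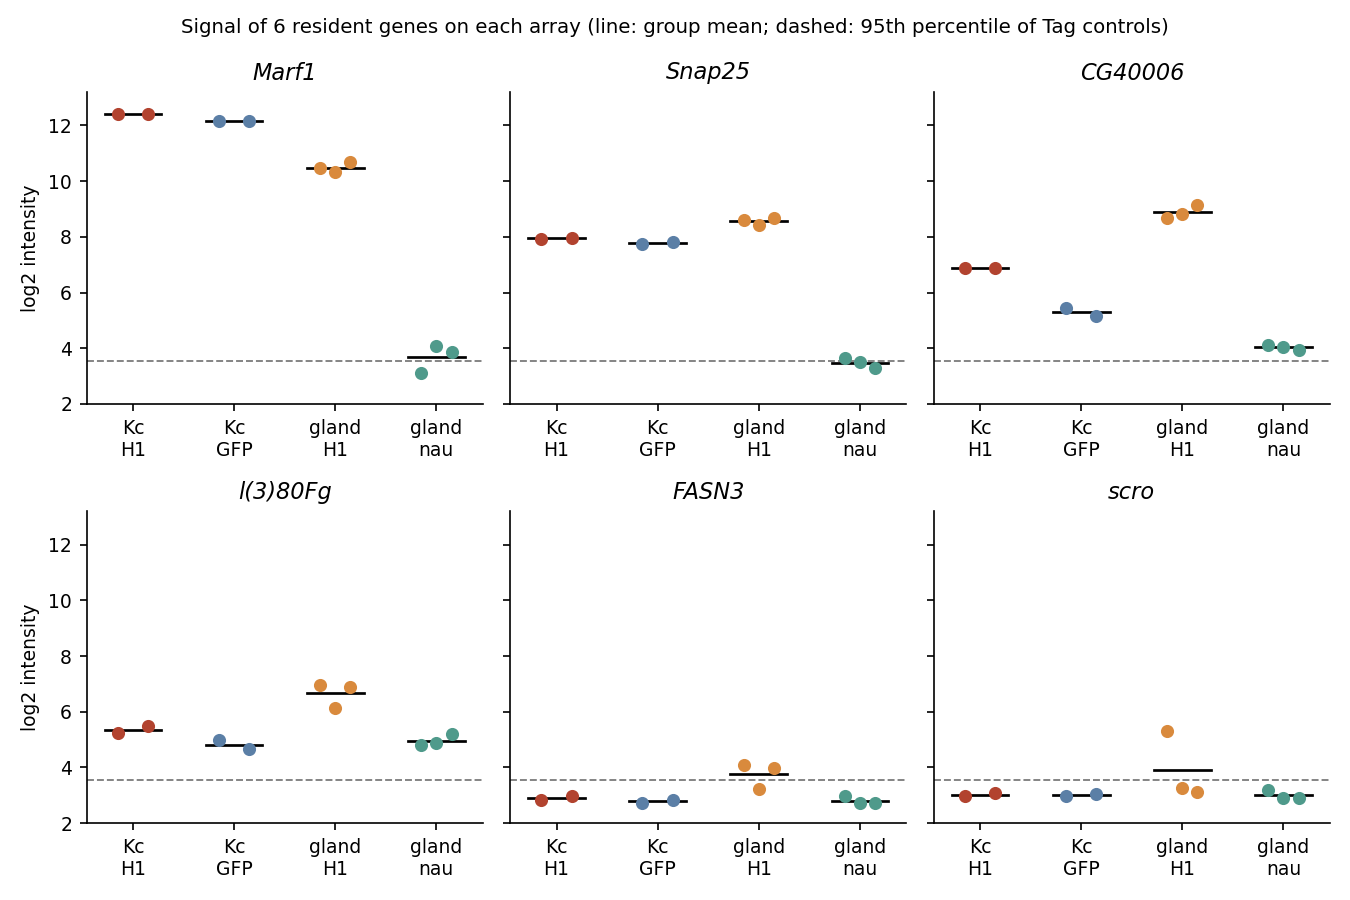
Log2 intensity of 6 resident genes on each array, by group, with the group mean as a line and the 95th percentile of the Tag controls (3.55) dashed. Marf1, Snap25 and CG40006 lie between 8.41 and 10.69 on the 3 gland H1 arrays and between 3.11 and 4.12 on the 3 gland nau arrays, while scro is high on gland H1 array a alone.

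The chromatin genes of the list changed little. Yeti, which encodes a chromatin protein of the BCNT family, had 12.10, 12.05 and 12.18 in glands labelled H1 RNAi and 11.80, 11.85 and 11.95 in glands labelled nau RNAi, a small rise (0.24, adjusted p = 0.0393) that was lost without any single array other than gland nau array c (adjusted p from 0.0514 to 0.111). Haspin, a histone H3 kinase, did not pass (-0.07, adjusted p = 0.605). The probe sets of Nipped-B, which encodes the loader of cohesin, and of Parp1, a poly(ADP-ribose) polymerase, were near background in both systems, at 3.01 to 3.62 and 2.41 to 3.54, and were not called in glands. The homeobox gene scro had 5.31, 3.27 and 3.12 in glands labelled H1 RNAi, against 3.18, 2.91 and 2.91 in glands labelled nau RNAi. Only gland H1 array a was high, the groups overlapped and the change did not pass (0.90, standard error 0.470, adjusted p = 0.158). On that array 7 of the 10 neuron and glia markers had their highest gland H1 value, and the part of this in the scro signal was not tested.

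Of the mitochondrial and metabolic genes 1 was called. FASN3, a fatty acid synthase gene, had 4.07, 3.22 and 3.98 in glands labelled H1 RNAi and 2.98, 2.71 and 2.73 in glands labelled nau RNAi. The H1 arrays lay above the nau arrays, and 2 of the 3 were above the near-background level, but none exceeded the highest Tag value of 4.08. The change is a bound of at least 0.21 on the log2 scale (fitted 0.95, adjusted p = 0.0036). Tim23, a channel subunit of protein import into mitochondria (0.13, adjusted p = 0.233), CG17683 (0.13) and CG17486 (-0.16) were not called.

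The remaining residents held 1 clear rise and small decreases. The gene l(3)80Fg had 6.97, 6.15 and 6.89 in glands labelled H1 RNAi, against 4.81, 4.89 and 5.19 in glands labelled nau RNAi (1.71, standard error 0.213, 3.26-fold, adjusted p = 0.000145). Its second probe set gave 1.84 (adjusted p = 2.87e-05), so both moved alike, whereas 2 probe sets that the annotation assigns to this gene together with another gave 0.20 (adjusted p = 0.264) and -0.49 (adjusted p = 0.0428). CG17490 had 7.18, 7.35 and 7.02 against 7.72, 7.77 and 7.58 (-0.51, adjusted p = 0.00804), and its second probe set fell as well (-0.66, adjusted p = 0.000945). CG17493, a relative of centrin, had 10.97, 10.93 and 10.82 against 11.13, 11.08 and 11.28 (-0.26, adjusted p = 0.0465), a call lost without any single array other than gland nau array b (adjusted p from 0.0512 to 0.132). CG41520 had 3.24, 3.09 and 3.03 against 3.50, 3.54 and 3.37. Both of its groups were under the near-background level, so the called difference (-0.35, adjusted p = 0.0141) has no readable fold, and it was seen in 1 of 4 probe sets. Slmap, a component of the STRIPAK phosphatase complex (-0.11, adjusted p = 0.265), and the splicing factor gene Spf30 (-0.12, adjusted p = 0.258) were not called.

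**Figure D3:**
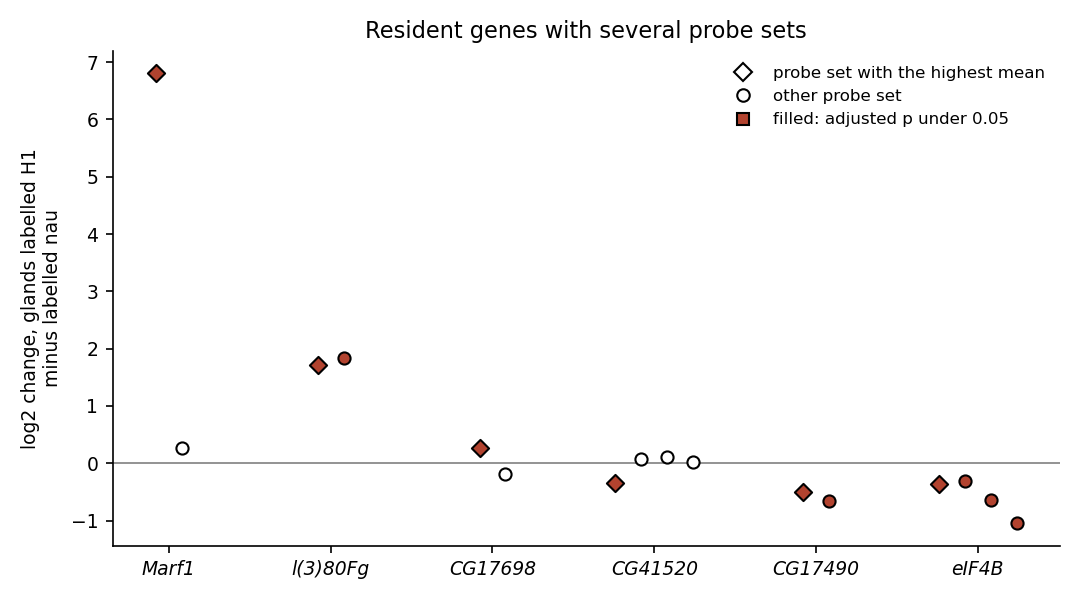
Log2 change, glands labelled H1 RNAi minus glands labelled nau RNAi, of every probe set of the 6 resident genes that have several, with the probe set of highest mean as a diamond and called probe sets filled. The probe sets of l(3)80Fg, CG17490 and eIF4B moved alike within each gene, while Marf1 shows 6.81 and 0.27.

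RNA quality was read from control probe sets at both ends of a transcript. The log2 signal of the 3′ minus the 5′ probe set was 2.29 ± 0.18 for actin in glands labelled H1 RNAi and 1.91 ± 0.10 in glands labelled nau RNAi (SD, n = 3 each). The GAPDH pair gave 2.53 ± 0.09 against 2.13 ± 0.05, and the eIF-4a pair 2.48 ± 0.07 against 2.17 ± 0.09. The difference was thus larger in the glands labelled H1 RNAi for all 3 transcripts, and its part in the gland changes was not tested.

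Whether the RNAi effect differed between the systems was tested directly, as the gland effect minus the Kc effect. Among all named genes 17.2% had a higher and 14.7% a lower gland effect at adjusted p under 0.05, and among the residents 6 of 29 (20.7%) had a higher and 1 (3.45%) a lower one. The difference was at least 6.42 for Marf1 (fitted 6.56, adjusted p = 2.23e-06), at least 4.80 for Snap25 (fitted 4.91, adjusted p = 3.22e-07) and 3.26 for CG40006 (adjusted p = 7.01e-06). The second Marf1 probe set gave 0.31 (adjusted p = 0.439), so the large Marf1 difference rests on the probe set of highest mean. In Kc cells Marf1 was already strong, at 12.41 and 12.40 with H1 RNAi and 12.17 and 12.15 with GFP RNAi, and Snap25 was well above background, at 7.92 and 7.97 against 7.73 and 7.81. Neither was called there (0.24, adjusted p = 0.821; 0.18, adjusted p = 0.694). The other called differences were 1.16 for l(3)80Fg (adjusted p = 0.0305), 0.53 for Parp1 (adjusted p = 0.0381), 0.43 for Dbp80 (adjusted p = 0.045) and -0.54 for CG41520 (adjusted p = 0.0224), and the probe sets of Parp1 and CG41520 were near background. For eIF4B the probe set of highest mean just missed a lower gland effect (-0.34, adjusted p = 0.052). Its other probe sets were called lower, at -0.79 (adjusted p = 0.00559), -0.85 (adjusted p = 0.00193) and -0.67 (adjusted p = 0.00916). All these directions rest on the gland labels. With the gland labels turned, 2 residents had a higher and 7 a lower gland effect (16.9% and 17.3% of all named genes), with -7.05 for Marf1, -5.26 for Snap25 and -6.41 for CG40006. The smaller differences as labelled depended on single arrays. Without gland H1 array c, gland nau array b or any single Kc array the count of higher gland effects was 3, with Marf1, Snap25 and CG40006 left. The call for l(3)80Fg was lost without those arrays or gland nau array a (adjusted p from 0.0502 to 0.125), and that for Dbp80 without those arrays or gland nau array c (0.0727 to 0.154). The call for Parp1 was lost without any single array other than gland nau array a (0.0506 to 0.153), and that for CG41520 without Kc H1 array b (0.104) or Kc GFP array a (0.101).

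The levels in the control groups were compared as glands labelled nau RNAi minus GFP RNAi Kc cells, a contrast in which tissue, genotype and RNAi target all differ and which shares its arrays with the RNAi comparisons. RNA quality differed as well, with a 3′ minus 5′ difference for actin of 1.91 in control glands and 0.44 in control Kc cells. GAPDH showed 2.13 in control glands and 0.83 in control Kc cells, and eIF-4a showed 2.17 and 0.56. The 18S ribosomal RNA control probe sets averaged 11.63 in control glands and 6.76 in control Kc cells. The part of these differences in the levels was not tested. Of the 29 residents 11 (37.9%) were called higher in glands and 7 (24.1%) lower, where 24.1% of all named genes were called higher and 35.4% lower. The 3 genes with the large gland rises were all lower in glands labelled nau RNAi than in Kc cells. Marf1 averaged 3.68 ± 0.50 in control glands (SD, n = 3) and 12.16 ± 0.01 in control Kc cells (SD, n = 2), lower in glands by at least 8.33 on the log2 scale (adjusted p = 1.34e-09). The second Marf1 probe set was also lower in glands, but by far less (-0.99, adjusted p = 0.000914). Snap25 averaged 3.48 ± 0.19 and 7.77 ± 0.06, lower in glands by at least 4.18, and CG40006 averaged 4.04 ± 0.09 and 5.30 ± 0.21 (-1.26, adjusted p = 3.47e-05). Since the control gland arrays enter both contrasts, low levels there and large rises are not independent of each other. These directions too rest on the gland labels. With the labels turned, the difference from control Kc cells was -1.67 for Marf1 (adjusted p = 0.00017), 0.79 for Snap25 (adjusted p = 0.000397) and 3.58 for CG40006 (adjusted p = 1.85e-08). In glands labelled H1 RNAi the mean of Marf1 was 10.49 ± 0.19, still under its Kc level, while Snap25 at 8.56 ± 0.14 and CG40006 at 8.88 ± 0.24 were above the means of the Kc H1 RNAi cells, 7.94 ± 0.03 and 6.88 ± 0.01.

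**Figure D4:**
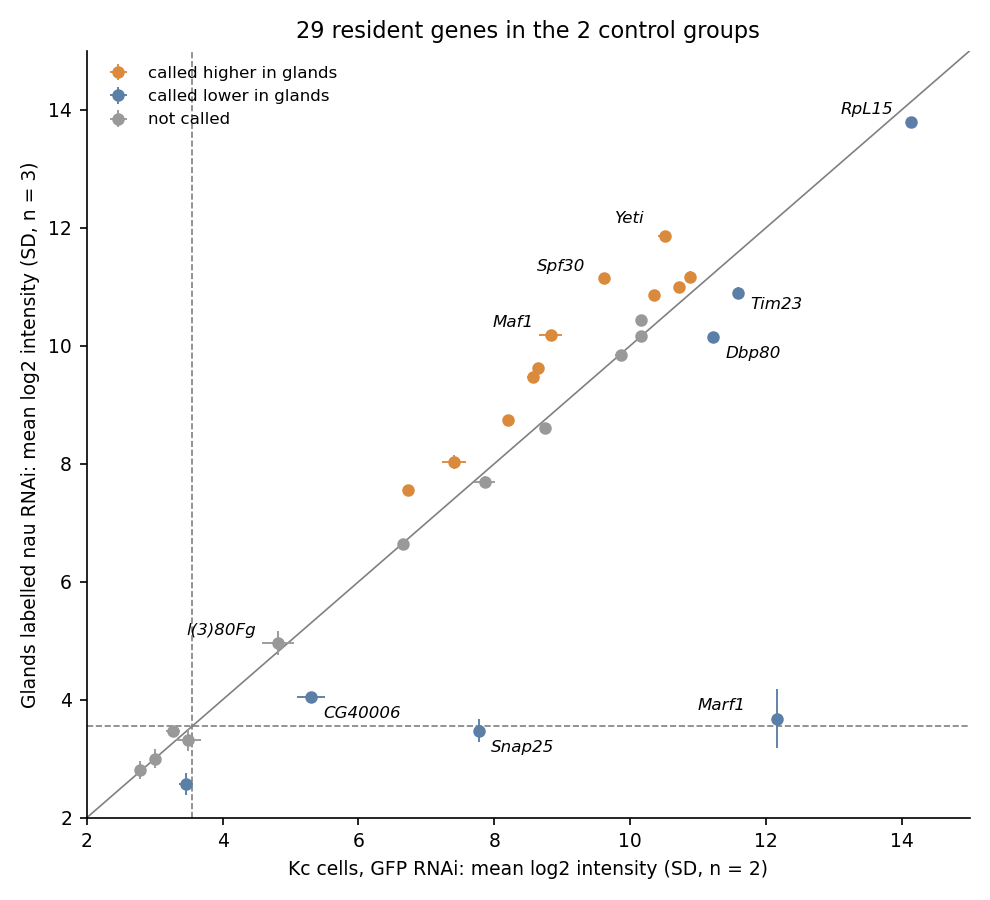
Mean log2 intensity of the 29 resident genes in the control groups, glands labelled nau RNAi (vertical) against GFP RNAi Kc cells (horizontal), with SD bars and the line of equal level; dashed lines mark 3.55. Of the 29 genes 14 differ by less than 0.5 and 7 by at least 2-fold, and Marf1, Snap25 and CG40006 lie low on the gland axis at 3.68, 3.48 and 4.04.

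The splicing factor gene Spf30 had the largest excess in control glands among the residents. It was higher by 1.55, Yeti by 1.36, Maf1 by 1.35, CG17683 by 0.98, Slmap by 0.91 and Haspin by 0.83, with adjusted p from 1.4e-07 for Spf30 to 8.61e-05 for Haspin. Smaller excesses in glands were called for Gprk1 (0.62), cta (0.53), CG17486 (0.50), CG17493 (0.28) and eIF4B (0.28). The other eIF4B probe sets gave 0.19 (adjusted p = 0.193), 0.01 (adjusted p = 0.972) and 1.82 (adjusted p = 2.05e-07), so its size is not settled. CG17698 (-0.02) and CG17490 (-0.17) were not called. Their second probe sets were called lower in glands, at -1.18 (adjusted p = 1.68e-05) and -0.75 (adjusted p = 0.000513). Leaving out Kc GFP array a ended the calls of Gprk1 (adjusted p = 0.0556), eIF4B (0.0977) and CG17493 (0.154). Without Kc GFP array b those of eIF4B (0.0514) and CG17493 (0.129) ended, and that of CG17493 also ended without gland H1 array b, gland nau array a or gland nau array c (0.0529 to 0.1). Besides the 3 genes above, Dbp80 (-1.07, adjusted p = 5.47e-06), Tim23 (-0.68, adjusted p = 9.26e-05) and RpL15 (-0.35, adjusted p = 0.00302) were lower in glands. Parp1 is the last of the 7, but both of its means were under the near-background level (2.57 in glands and 3.46 in Kc cells), so its difference cannot be read. Light had nearly the same level in both, at 10.16 ± 0.09 in control glands and 10.16 ± 0.04 in control Kc cells (0.00, standard error 0.087, adjusted p = 0.988).

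Residents were then split by their mean over all arrays of a system. Near-silent here describes a probe set's mean signal, at or under the near-background level. A silent gene and a probe set that fails to detect its gene cannot be told apart. The same 5 genes (CG41520, FASN3, Nipped-B, Parp1 and scro) were near-silent by this measure in both systems. That is 17.2% of the residents, against 28.1% of all named genes in Kc cells and 24.2% in glands. The 24 expressed residents had a median change of 0.06 in Kc cells and -0.04 in glands. The 5 near-silent residents had medians of 0.01 in Kc cells and 0.20 in glands, where near-silent named genes had -0.02 and -0.08. The 0.20 is the value of Parp1, with both gland groups near background. Of the 5, FASN3 was called higher and CG41520 lower in glands, where 3.34% of the near-silent named genes were called higher and 9.86% lower. A mean over both groups of a system places Marf1, Snap25 and CG40006 among the expressed genes in glands, although Snap25 was at background in the nau group. Group by group, 3 residents were at or under the near-background level in glands labelled H1 RNAi and 6 in glands labelled nau RNAi, and 5 in each Kc group. Of the 2943 named genes at or under that level in glands labelled nau RNAi, 9.99% were called higher in glands labelled H1 RNAi. Of the 6 such residents these were Snap25 and FASN3. The nau arrays both picked these genes and enter the change, so the selection itself favours a rise.

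**Figure D5:**
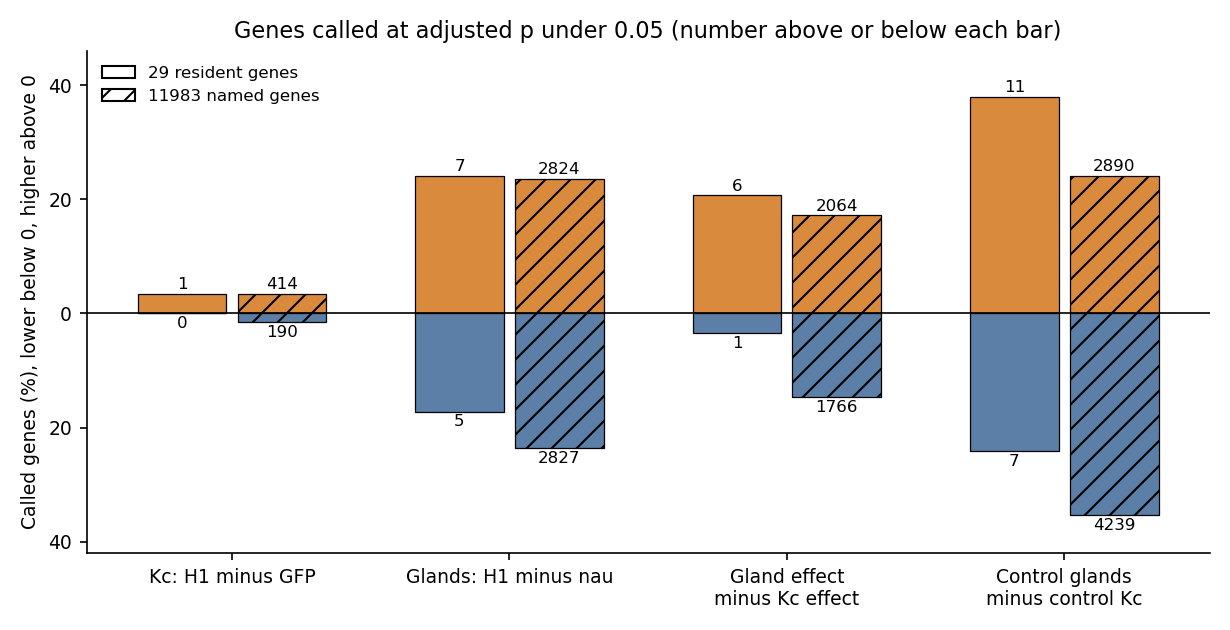
Share of called genes, higher above 0 and lower below, among the 29 residents (plain bars) and all 11983 named genes (hatched bars), for the 2 RNAi comparisons, the difference between their effects and the contrast of the control groups, with the number of genes at each bar. In glands 7 and 5 residents were called, beside 2824 and 2827 of all named genes.

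Changes of residents that lie next to each other were set side by side. With every gene of the RefSeq annotation counted, 5 pairs of measured residents follow each other with no other gene between them. Slmap and CG40006 are such a pair, and in glands they changed by -0.11 and 4.84 and in Kc cells by -0.14 and 1.58. FASN3 and l(3)80Fg are another, and both were called higher in glands, by at least 0.21 (fitted 0.95) and by 1.71. No FASN3 array exceeded the highest Tag value of 4.08. The pairs CG17493 and Slmap (-0.26 and -0.11 in glands), Haspin and CG17683 (-0.07 and 0.13), and p120ctn and CG17486 (-0.05 and -0.16) held 1 call, that of CG17493.

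Genes of heterochromatin itself were taken as a second list, of which 25 of 30 were measured. In Kc cells 0 of the 25 were called by limma, with 4 at an unadjusted p under 0.05, and the median change was 0.03. In glands 4 were higher and 7 lower (44%, where 47.2% of all named genes were called), with a median of -0.16. HP6, a gene of the HP1 family, rose by 2.86 (adjusted p = 1.14e-06) and HP4, whose product binds HP1, by 0.83 (adjusted p = 3.39e-05). JIL-1, the kinase of histone H3 that opposes the spread of heterochromatin, fell by 1.89 (adjusted p = 1.58e-06), and mod(mdg4), a gene of insulator proteins, fell by 1.11 (adjusted p = 2.85e-05).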

How the data were processed

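The deposited table gave a linear intensity for every probe set of each array (4.389 to 20761.1). The authors made these intensities with RMA, per the submitters' processing notes, which give no version and do not say if cell and gland arrays were normalized jointly. The log2 of each deposited intensity was taken, the 183 control probe sets were left out, and limma 3.58.1 (lmFit, then eBayes; R 4.3.3) fitted 4 group means to the 10 arrays together, a call being an adjusted p under 0.05. The fit was tested on simulated data.

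Of 18769 probe sets 13648 carried 1 gene symbol, 401 several and 4720 none. For 13544 the gene was found in the RefSeq annotation of Release 6, used for names and gene order only, since the sources name no build. Promoter motifs and resident sequences are not analysed here.

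The members and lists were chosen with earlier results of these data known. Every measured member is named, with values where a comparison called it, and of the heterochromatin list the up to 4 with the smallest p. The replicate letters did not pair the arrays (correlations of same-lettered deviations from -0.07 to 0.09). Alternatives covered scaling, filter, prior, probe set, arrays fitted and each array left out. The number of arrays limits the precision.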

Additional observations from a re-analysis of the deposited data

Results flagged for a closer look

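For 7 resident genes the RNAi effect in glands differed from that in Kc cells, as tested by limma on the difference of the effects. That is 24.1% of the 29 measured residents, under the 32% of all named genes. The gland effect was higher by at least 6.42 on the log2 scale for Marf1 (fitted 6.56) and at least 4.80 for Snap25 (fitted 4.91), since arrays of the glands labelled nau RNAi were near background. It was higher by 3.26 for CG40006, 1.16 for l(3)80Fg, 0.53 for Parp1 and 0.43 for Dbp80. It was lower for CG41520, with a difference of -0.54. The calls for l(3)80Fg, Parp1, Dbp80 and CG41520 were each lost when certain single arrays were left out. The directions rest on the gland labels. The Marf1 difference was seen in the probe set of highest mean, while the second Marf1 probe set gave 0.31 (adjusted p = 0.439). For Marf1, Snap25, CG40006 and l(3)80Fg the gland change was the one called, and CG40006 was also called in Kc cells. Parp1 and Dbp80 were called in neither system alone, with opposite signs in the systems. The Parp1 and CG41520 probe sets were near background in all groups, so the sizes of these differences cannot be read.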

How the results depend on the processing

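The alternative that took each gene's probe set of lowest mean repeats the main result for all but the 6 residents with several. Of 38 called results on single residents, 24 kept their call and direction under every alternative run for them. In glands these included CG40006, Snap25, l(3)80Fg, FASN3, eIF4B, CG17490 and Spf45, and in Kc cells CG40006 (log2 change 1.225 to 1.725). The filter alternative kept probe sets above the near-background level in at least 2 arrays. FASN3 passed this filter only through gland H1 arrays a and c (4.07 and 3.98), the group in which it was called higher. For FASN3 the filter is therefore no separate test of the rise. The small gland calls of CG17493, CG17698 and Yeti failed to hold in 11, 15 and 13 of 17 alternatives. With the probe set of lowest mean, the gland change was 0.27 for Marf1 (adjusted p = 0.211), -0.19 for CG17698 and 0.10 for CG41520. Quantile normalization gave CG17698 a control gland minus Kc difference of 0.45, against -0.02. Fitting the Kc arrays alone gave 3 residents higher in place of 1. Over all named genes it gave 930 higher in place of 414 and 704 lower in place of 190. Residents with a lower gland than Kc effect numbered 1 in the main analysis, 2 with median centring, 3 with quantile normalization, 3 with a trended prior and 0 where every probe set had to be called, an alternative chosen after seeing the data. With the gland labels turned, also chosen after seeing the data, 2 residents had a higher and 7 a lower gland effect, in place of 6 and 1. Judged by the Tag median, 2 residents were near-silent in Kc cells and 1 in glands, in place of 5. Counting only protein-coding genes as lying between residents gave 9 neighbouring pairs in place of 5, also chosen after seeing the data. The causes were not tested.

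With single arrays left out, the counts of residents called higher and lower ranged from 1 to 1 and 0 to 0 in Kc cells, 5 to 6 and 4 to 5 in glands, 3 to 6 and 0 to 1 for the difference of the effects, and 8 to 11 and 7 to 7 between the control groups. With a replicate block, residents called were 1 higher and 0 lower in Kc cells, 5 and 4 in glands, and 5 and 1 for the difference. Over all probe sets it gave 447 Kc calls in place of 771, and 7147 gland calls in place of 7631. Kc probe sets called with the Kc arrays alone numbered 2152. The promoter motifs and another background correction were not run. Values near 3.55 cannot be told from background.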
